A study of Mus musculus with 41 samples.

Results

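The tumour suppressor p53 and 9 genes of its pathway were followed across control and mutant mouse tissues and cells. Mutant libraries are named by the gene in their label, Hbs1l, Pelo or Upf2, 3 factors of translation-dependent quality control. Counts per gene could not check the loss of Upf2. The members were taken by name: Trp53, which encodes p53; Atm and Mdm2, which regulate it; and Cdkn1a, Ccng1, Bax, Phlda3, Zmat3, Sesn2 and Eda2r, which it activates (Mdm2 is a target as well). They were 10 of the 22438 genes with ribosome footprint counts, and all 10 passed the filter on low counts in every comparison. In the RNA tables the same genes had 45 of 142552 annotated transcripts. In fibroblasts the footprints of Ccng1, Mdm2 and Cdkn1a fell in the mutants of Hbs1l, Pelo and Upf2, those of Atm rose 2.45- to 2.89-fold, and those of Bax did not pass the test in any. In Hbs1l -/- embryos and Hbs1l cKO cerebella no member passed the test in edgeR.

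DNA damage and other stresses stabilise p53, a transcription factor that is otherwise kept low by the ubiquitin ligase MDM2. The kinase ATM signals DNA breaks to p53 and MDM2. Because p53 activates Mdm2, the 2 proteins form a feedback loop, and other targets of p53 arrest the cell cycle, repair DNA, limit growth signals or start cell death. In fibroblasts grown in culture the pathway is active to some degree and the cyclin-dependent kinase inhibitor p21, the product of Cdkn1a, is its best known output. On GRCm38 (Gencode M21) they lie at chr11:69580359-69591873 (Trp53, plus strand), chr9:53439149-53536740 (Atm, minus), chr10:117688875-117710758 (Mdm2, minus), chr17:29090976-29100727 (Cdkn1a, plus), chr11:40748552-40755311 (Ccng1, minus), chr7:45461697-45466898 (Bax, minus), chr1:135766119-135769136 (Phlda3, plus), chr3:32334792-32366014 (Zmat3, minus), chr4:132492032-132510501 (Sesn2, minus) and chrX:97333840-97377216 (Eda2r, minus).

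p53 binds as a tetramer to a pair of half-sites, each with a CNNG core, and the promoters of members were searched for such pairs because several members moved together in the fibroblasts. Windows from 250 bases before to 50 bases after the start were available from RefSeq (GRCm38.p6) for 9 members, all but Zmat3. The p53 half-site motif, known by that name, was searched as a pair with a spacer of 0 to 13 bases and at most 1 mismatch in each half-site. The half-site reads the same on both strands, so that 1 strand covers both. Of the 10 windows of members 2 held a match, that of Ccng1 and 1 of the 2 of Cdkn1a. Of all 32851 windows 890 did (2.71%). Positions below count from the start that the matching window was taken around. The 2 matches without a spacer are shown 5′ to 3′ on the strand of the gene, with the CNNG cores in capitals. That of Ccng1 lies at chr11:40755462-40755481 (minus strand) and begins at position -195 from the start, and that of Cdkn1a lies at chr17:29090928-29090947 (plus strand) and begins at position -51. Each has 1 mismatch in all.
Ccng1: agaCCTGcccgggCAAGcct
Cdkn1a: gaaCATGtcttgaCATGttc
With no mismatch allowed, 1 of the 2 Cdkn1a windows was the only member window with a match. It was a pair with a spacer of 12 bases that shares a half-site with the pair above. Of all windows 24 (0.0731%) held such a match. These matches describe letters in a window, and binding was not measured here.

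Ribosome footprints were sequenced from 30 libraries in 5 comparisons of 3 mutant with 3 control libraries, and poly(A) RNA from 11 libraries of the fibroblasts. The embryos were C57BL/6NJ at E8.5, Hbs1l -/- against Wildtype, and several embryos were pooled for each library. The cerebella were C57BL/6J at P14, Atoh-Cre;Hbs1l cKO against Atoh-Cre;Hbs1l +/+, with a Cre that is active in granule cells and leaves other cell types of the tissue unrecombined. The paper gives the cKO cerebella as Hbs1l fl/-, so that their unrecombined cells also carried a knock-out allele. The mouse embryonic fibroblasts (MEFs) were C57BL/6 and carried CAG-Cre ER with or without a conditional allele of Hbs1l, Pelo or Upf2. By the paper's genotypes the mutants were Hbs1l fl/-, Pelo fl/fl and Upf2 fl/fl, so that Hbs1l cKO MEFs held a knock-out allele before tamoxifen. Controls and mutants alike received tamoxifen, so that Cre activity and the drug were common to all MEFs, and all cerebella and MEFs carried the B6J form of the tRNA gene n-Tr20. HBS1L and PELO form the complex that rescues stalled ribosomes, and UPF2 belongs to the machinery of nonsense-mediated decay.

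The depth was 2634480 to 7298812 counts in embryos, 10919139 to 22591768 in cerebella, 5782990 to 25607974 in MEF footprints and 22713643 to 86425762 in RNA. Hbs1l footprints fell by 3.60 on the log2 scale in embryos and by 4.15 in Hbs1l cKO MEFs, they were at 12.8 to 15.7 against 37.8 to 44.7 counts scaled by library size (CPM) in cerebella, and Pelo footprints fell by 3.78 in Pelo cKO MEFs. In the libraries labelled Upf2 cKO, Upf2 was higher than in controls, in footprints (113 to 119 against 49.2 to 58.3 CPM) and in RNA (log2 fold change 1.33). Counts were per gene and not per exon, so that this neither checks nor contradicts a deletion of part of Upf2, and the libraries are called by their label throughout. The same 3 control MEF libraries appeared to stand behind all 3 sets of MEF controls: same-numbered controls of different sets differed by a chi-square per gene of 1.10 to 1.19, against 4.06 to 12.6 for other pairs. The MEF comparisons therefore share their controls, so that a member called in several of them is not independent support, and their values are given side by side. p-values measure the spread between these libraries. Fibroblast markers (7 of 7 detected) summed to 42326 to 49429 CPM over the footprint groups of MEFs, with members that went opposite ways: Pdgfra had 182 to 355 CPM in Pelo cKO against 16.03 to 30.9, and Fn1 9748 to 11242 against 15440 to 17299. In RNA they summed to 10884 to 14706 CPM in controls, 12703 to 17027 in Hbs1l cKO, 11045 to 11994 in the libraries labelled Upf2 cKO and 19698 to 20115 in Pelo cKO, above every control. Fn1 RNA was higher in Pelo cKO, at 6039 to 6389 CPM against 1617 to 3139, opposite to its footprints. Pdgfra RNA overlapped the controls there, at 7.15 to 8.71 CPM against 2.73 to 7.74. Col1a1 and Col1a2 in Pelo cKO were above every control in footprints and in RNA. Macrophage markers (5 of 5 detected) summed to 345 to 501 CPM in Pelo cKO, 162 to 219 in Hbs1l cKO and 123 to 158 in the libraries labelled Upf2 cKO, against 90.6 to 126 in controls. In RNA they summed to 123.4 to 169 CPM in Hbs1l cKO against 65.9 to 96.6 in controls, 98.8 to 141.8 in Pelo cKO and 63.0 to 124.6 in the libraries labelled Upf2 cKO. Endothelial markers (5 of 5 detected) summed to 38.8 to 43.4 CPM in footprints of Hbs1l cKO, 25.1 to 31.9 in Pelo cKO and 54.8 to 61.6 in the libraries labelled Upf2 cKO, against 68.9 to 82.7 in controls. In RNA they summed to 16.1 to 18.2, 34.2 to 40.4 and 21.4 to 28.5 CPM against 28.8 to 37.3, so that Pelo cKO was not lower there. Their part in the results below was not tested. Since these are bulk samples, fewer cells of a type and less RNA per cell cannot be told apart.

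In MEF footprints, 6 members were called in Hbs1l cKO (1 higher, 5 lower), 7 in Pelo cKO (2 higher, 5 lower) and 6 in the libraries labelled Upf2 cKO (2 higher, 4 lower), at an adjusted p of at most 0.05 in edgeR. Of all genes tested, 17.4% were called higher and 16.7% lower in Hbs1l cKO, 22.9% and 21.2% in Pelo cKO, and 22.3% and 21.1% in the libraries labelled Upf2 cKO. The median log2 fold change over the 10 members was -0.22, -0.17 and -0.12, and over all genes it was -0.01, 0.00 and 0.00. The groups did not overlap for 7, 7 and 8 members, which compares with 46.4%, 55.4% and 54.1% of all genes. With a background this large, the counts alone say little about the pathway, and the values of each member follow by role.

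**Figure D1:**
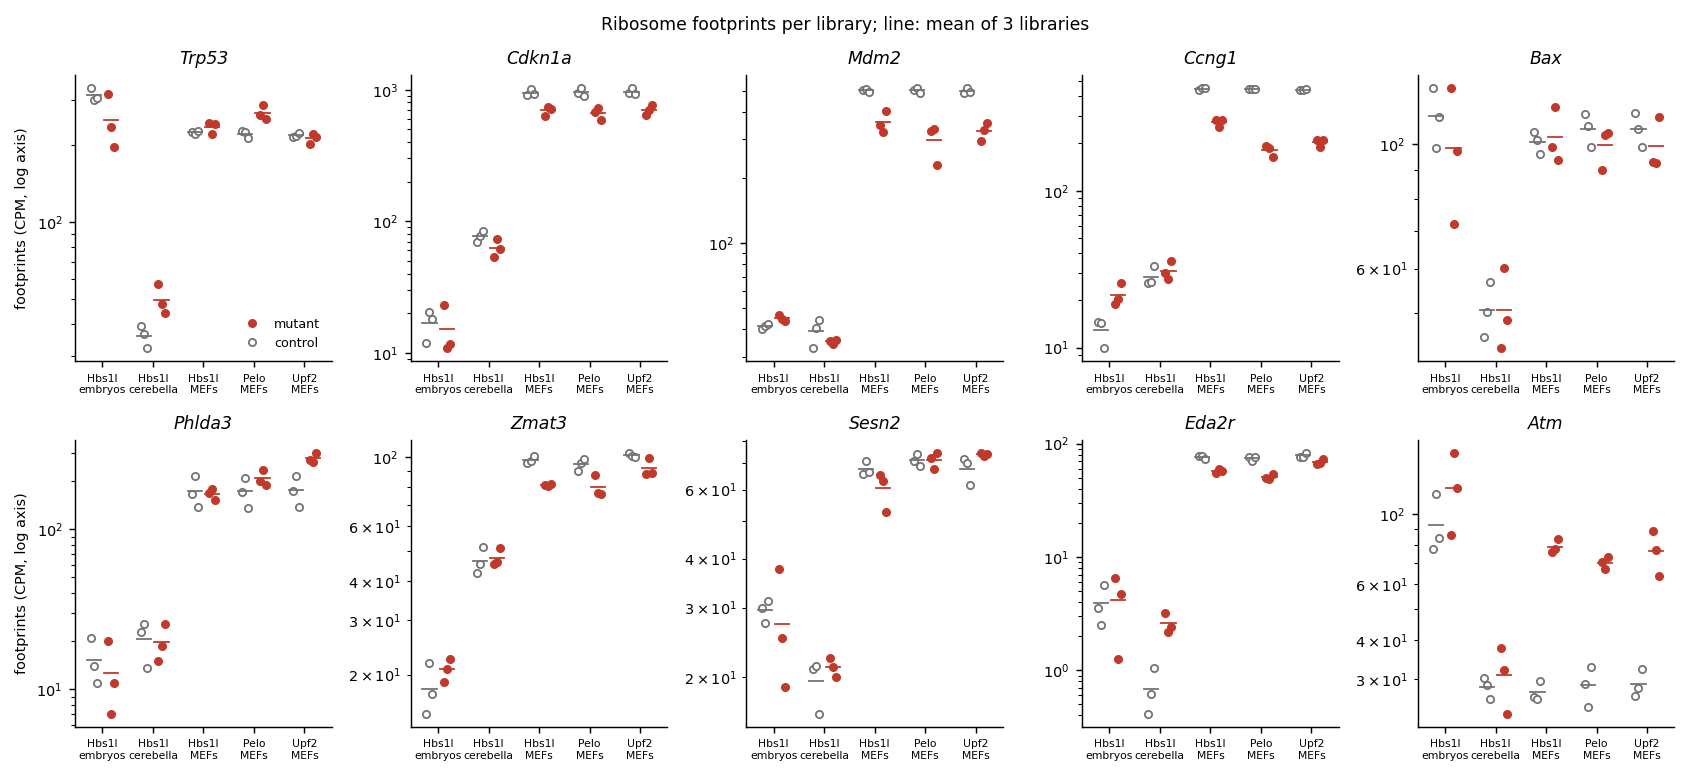
Ribosome footprints (CPM, log axis) of each member in the 30 libraries, with open circles for controls, filled circles for mutants and a line at the mean of 3. Atm, Ccng1, Mdm2 and Cdkn1a separate mutants from controls in the MEF comparisons, which share controls, and Cdkn1a, Ccng1, Mdm2 and Eda2r lie far lower in embryos and cerebella than in MEFs.

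Trp53 itself changed little. Its footprints were 245, 220 and 242 CPM in Hbs1l cKO against 225, 220 and 227 in controls (log2 fold change 0.07, SE 0.06, adjusted p = 0.411), so that the groups overlapped. In Pelo cKO they were 262, 285 and 252 CPM against 227, 224 and 212, an increase of 0.27 (SE 0.07, adjusted p = 0.00919) with every mutant above every control. In the libraries labelled Upf2 cKO they were 202, 220 and 215 CPM against 215, 217 and 222 (-0.04, SE 0.06, adjusted p = 0.641).

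Atm, the kinase upstream of p53, was the member with the largest change in Hbs1l cKO and in the libraries labelled Upf2 cKO. Hbs1l cKO MEFs had 75.8, 77.6 and 83.6 CPM and their controls 26.4, 25.9 and 29.7, a log2 fold change of 1.53 (SE 0.09, adjusted p = 1.93e-07). Pelo cKO MEFs had 70.4, 67.1 and 73.2 CPM against 28.9, 24.4 and 32.9 (1.29, SE 0.10, adjusted p = 8.94e-06). In the libraries labelled Upf2 cKO the values were 88.7, 77.0 and 63.8 CPM against 26.5, 28.0 and 32.4 (1.40, SE 0.12, adjusted p = 7.83e-06). No mutant library came near a control.

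Mdm2, the ligase that marks p53 for destruction, moved the other way. Its footprints were 349, 325 and 404 CPM in Hbs1l cKO against 503, 512 and 498 in controls (-0.49, SE 0.08, adjusted p = 0.000255). They were 327, 336 and 229 CPM in Pelo cKO against 505, 519 and 490 (-0.76, SE 0.13, adjusted p = 0.000816), the third mutant library being the lowest of all. The libraries labelled Upf2 cKO had 296, 331 and 358 CPM against 488, 515 and 494 (-0.60, SE 0.07, adjusted p = 6.56e-05). Controls stayed within a narrow band and no mutant reached it.

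Cdkn1a and Ccng1, the genes of p21 and cyclin G1, both fell. Cdkn1a had 634, 738 and 713 CPM in Hbs1l cKO against 906, 1020 and 921 (-0.45, SE 0.07, adjusted p = 0.000324). In Pelo cKO it had 679, 728 and 593 CPM against 937, 1037 and 901 (-0.52, SE 0.09, adjusted p = 0.000954). It had 639, 700 and 771 CPM in the libraries labelled Upf2 cKO against 939, 1039 and 929 (-0.46, SE 0.08, adjusted p = 0.000599). The decreases were thus close to each other in size, at 0.696- to 0.732-fold of control.

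Ccng1 fell further than any other member. It had 282, 257 and 284 CPM in Hbs1l cKO against 438, 454 and 449 (-0.70, SE 0.06, adjusted p = 4.24e-06). In Pelo cKO it had 192, 187 and 165 CPM against 442, 443 and 442 (-1.29, SE 0.07, adjusted p = 8.73e-07). The libraries labelled Upf2 cKO had 210, 191 and 210 CPM against 436, 436 and 446 (-1.11, SE 0.06, adjusted p = 6.77e-07). The decrease in Pelo cKO exceeded that in Hbs1l cKO by 0.58 (SE 0.09, adjusted p = 0.00187 for the difference of the effects). That test called 5.55% of all genes, with Ccng1 the only member among them, but it counts the shared control libraries as separate ones. Set directly against each other, the 3 Pelo cKO and 3 Hbs1l cKO libraries differed for Ccng1 (-0.59, adjusted p = 0.000559) and for Phlda3 (0.34, adjusted p = 0.0313), where 15.6% of all genes were called. Batch and the make-up of the alleles (fl/fl against fl/-) change together with genotype in that direct comparison.

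**Figure D2:**
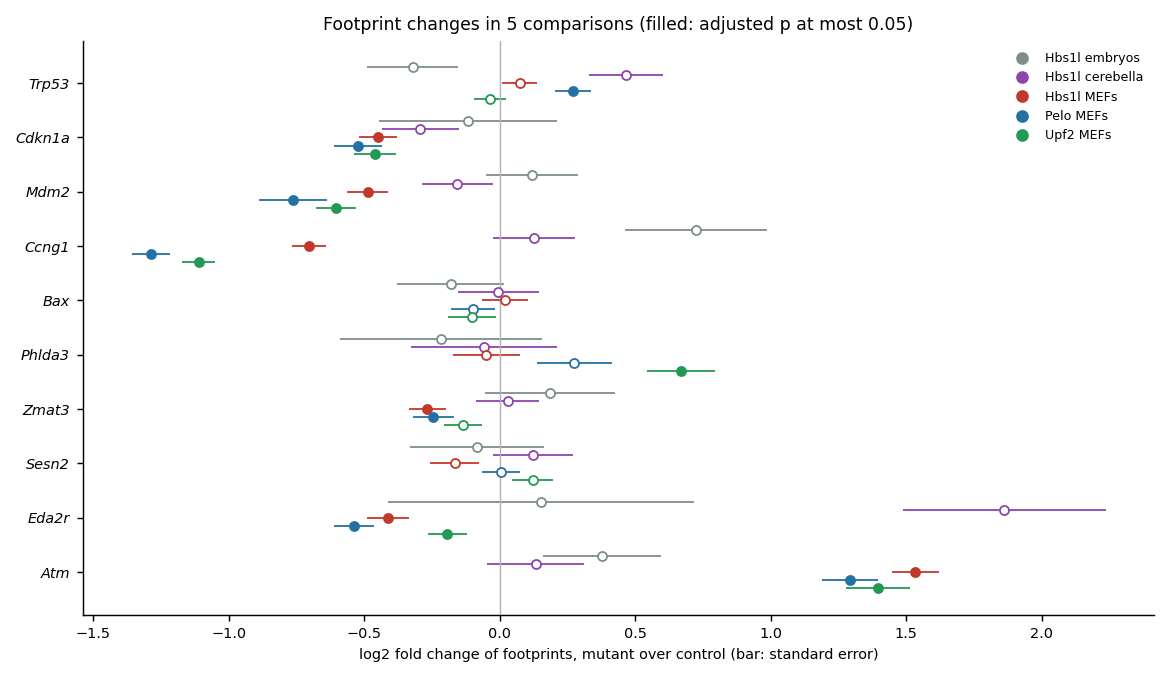
Log2 fold change of footprints, mutant over control, of each member in 5 comparisons, with bars for the standard error and filled points for an adjusted p of at most 0.05. Ccng1 lies at -0.70, -1.29 and -1.11 and Atm at 1.53, 1.29 and 1.40 in the MEFs, while no point of the embryos or cerebella is filled.

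The members tied to cell death went separate ways. BAX permeabilises mitochondria, EDA2R is a receptor of the tumour necrosis factor family, and PHLDA3 restrains the kinase AKT. Bax ranged from 90.2 to 116 CPM in all mutants and from 96.2 to 114 CPM in all controls, with log2 fold changes of 0.02, -0.10 and -0.10 (SE 0.08, 0.08 and 0.09) and adjusted p of 0.894, 0.358 and 0.368. Its coding sequence overlaps that of Gm45808 on the same strand, so that reads of the pair could be divided between them.

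Eda2r had 54.8, 60.3 and 57.5 CPM in Hbs1l cKO against 77.9, 78.4 and 72.8 (-0.41, SE 0.08, adjusted p = 0.000971). It had 50.1, 48.6 and 54.2 CPM in Pelo cKO against 75.9, 70.3 and 76.0 (-0.54, SE 0.07, adjusted p = 0.000267). The decrease was smaller in the libraries labelled Upf2 cKO, at 66.2, 67.9 and 72.6 CPM against 76.7, 76.9 and 82.9 (-0.19, SE 0.07, adjusted p = 0.0455), and this call held in 4 of 11 other settings (another tool, scaling or filter, or 1 library left out). The effects of Upf2 and Pelo differed by 0.34 (SE 0.10, adjusted p = 0.0313), held in 8 of 17 settings, in a test that called 6.18% of all genes higher and 6.82% lower and that counts the shared controls as separate libraries. Compared directly, the libraries labelled Upf2 cKO and the Pelo cKO libraries differed for Eda2r by 0.41 (adjusted p = 0.0028), for Phlda3 by 0.40 (adjusted p = 0.00932) and for Trp53 by -0.35 (adjusted p = 0.00526), where 26.7% of all genes were called. Here too batch changes together with genotype.

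Phlda3 rose in the libraries labelled Upf2 cKO. They had 273, 265 and 301 CPM against 173, 215 and 139 in controls (0.67, SE 0.13, adjusted p = 0.00133), and every mutant lay above every control. In Hbs1l cKO it had 170, 180 and 153 CPM against 167, 215 and 137 (-0.05, SE 0.12, adjusted p = 0.791), and in Pelo cKO 202, 236 and 191 against 173, 210 and 136 (0.28, SE 0.14, adjusted p = 0.134). In Pelo cKO the value ran from 0.13 to 0.44 with 1 library left out, and Phlda3 was called without control replicate 2 (0.44, adjusted p = 0.0203) and with a replicate block (0.29, adjusted p = 0.00651). Its controls spread more widely than those of the other members, and in both these comparisons the groups overlapped.

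Zmat3 encodes a zinc finger protein that binds RNA, and Sesn2 a sestrin that restrains mTORC1 and also answers to other stresses. Zmat3 had 81.4, 80.4 and 82.1 CPM in Hbs1l cKO against 95.8, 97.0 and 101 (-0.27, SE 0.07, adjusted p = 0.00814). In Pelo cKO it had 87.7, 76.4 and 75.8 CPM against 90.2, 95.6 and 98.4 (-0.25, SE 0.08, adjusted p = 0.0256, held in 7 of 11 other settings), and in the libraries labelled Upf2 cKO 88.0, 99.5 and 88.6 against 103, 101 and 100.3 (-0.13, SE 0.07, adjusted p = 0.144). Sesn2 passed in none of the 3, with log2 fold changes of -0.17, 0.00 and 0.12 (SE 0.09, 0.07 and 0.08).

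RNA of fibroblasts with the same genotypes shows which of these footprint changes were also present in message level. At the same threshold, 3 members were called in Hbs1l cKO (1 higher, 2 lower), 2 in Pelo cKO (both lower) and 3 in the libraries labelled Upf2 cKO (2 higher, 1 lower). Of all genes, 12.7% were called higher and 10.4% lower in Hbs1l cKO, 15.5% and 16.6% in Pelo cKO, and 13.2% and 6.76% in the libraries labelled Upf2 cKO. Pelo cKO rests on 2 RNA libraries, since a further one was set aside by the study as an outlier. The groups did not overlap for 5, 3 and 5 members, against 44.3%, 62.2% and 39.9% of all genes. Members differed widely in RNA level per length. In control MEFs the means in TPM, estimated reads scaled by transcript length and library size, were 747 for Cdkn1a, 378 for Bax, 295 for Phlda3, 279 for Ccng1, 150 for Trp53, 77.1 for Mdm2, 22.8 for Sesn2, 21.8 for Eda2r, 21.5 for Zmat3 and 1.22 for Atm. The ranges of Phlda3 and Ccng1 overlapped, as did those of Sesn2, Eda2r and Zmat3, and the other neighbours were separate.

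Ccng1 RNA fell in Hbs1l cKO, in Pelo cKO and in the libraries labelled Upf2 cKO. It was at 260, 303 and 274 TPM in controls and at 96.1, 173 and 180 TPM in Hbs1l cKO (log2 fold change of counts -0.92, SE 0.22, adjusted p = 0.0170). Pelo cKO had 138 and 100.4 TPM (-1.40, SE 0.13, adjusted p = 0.000900). The libraries labelled Upf2 cKO had 232, 197 and 125 TPM (-0.60, SE 0.16, adjusted p = 0.0260, held in 7 of 11 other settings). No mutant library reached the lowest control.

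Mdm2 RNA fell in Hbs1l cKO, at 38.6, 60.2 and 53.1 TPM against 69.3, 82.6 and 79.4 (-0.62, SE 0.15, adjusted p = 0.0181). It was at 84.9 and 79.0 TPM in Pelo cKO (-0.08, SE 0.08, adjusted p = 0.489) and at 107, 75.3 and 58.5 TPM in the libraries labelled Upf2 cKO (-0.03, SE 0.16, adjusted p = 0.906), where the groups overlapped. Cdkn1a RNA did not pass in any, with log2 fold changes of -0.27, -0.08 and 0.02 (SE 0.11, 0.09 and 0.13, adjusted p = 0.105, 0.527 and 0.940). The lower footprints of Cdkn1a thus had no called counterpart in RNA.

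Of the other members, each RNA call came in a single mutant. Trp53 was at 208, 187 and 199 TPM in Hbs1l cKO against 126, 152 and 172 (0.37, SE 0.10, adjusted p = 0.0306, held in 6 of 11 other settings), and a processed pseudogene, Trp53-ps, has its own transcript in the RNA tables that could take reads of Trp53. Bax fell in Pelo cKO (-0.30, SE 0.08, adjusted p = 0.0326, held in 4 of 10 settings). In the libraries labelled Upf2 cKO, Phlda3 rose to 394, 455 and 493 TPM against 309, 308 and 268 (0.69, SE 0.17, adjusted p = 0.0194, held in 8 of 11), and Sesn2 rose to 30.8, 32.2 and 33.6 TPM against 19.5, 24.8 and 24.02 (0.53, SE 0.11, adjusted p = 0.00831, held in 11 of 11). In Hbs1l cKO Phlda3 RNA was called higher in 3 other settings, DESeq2 (0.41, adjusted p = 0.0368), no filter (0.46, adjusted p = 0.0109) and without control replicate 1 (0.57, adjusted p = 0.0329). Phlda3 rose in both RNA and footprints in the libraries labelled Upf2 cKO, whereas Sesn2 rose in RNA. Without control replicate 2 the number of members called in RNA was 0 in Hbs1l cKO and 1 in the libraries labelled Upf2 cKO.

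Atm RNA was low in every library. It was at 1.14, 1.06 and 1.45 TPM in controls, 1.15, 1.68 and 1.46 TPM in Hbs1l cKO, 0.982 and 0.610 TPM in Pelo cKO and 1.40, 1.46 and 0.891 TPM in the libraries labelled Upf2 cKO. The groups overlapped, on 63 to 929 reads per library, and the log2 fold changes of 0.58, -0.50 and 0.57 (SE 0.25, 0.29 and 0.22) did not pass (adjusted p = 0.125, 0.230 and 0.0967). In Hbs1l cKO Atm RNA was called higher without the filter on low counts (0.62, adjusted p = 0.00683) and without mutant replicate 1 (0.82, adjusted p = 0.0171). In the libraries labelled Upf2 cKO it was called higher without the filter (0.61, adjusted p = 0.0177) and without mutant replicate 3 (0.79, adjusted p = 0.0173).

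Translational efficiency (TE), the ratio of footprints to RNA, was read from 1 model over both kinds of library. In Hbs1l cKO edgeR called no member and 0.0336% of all genes, and 4 members had an unadjusted p under 0.05. DESeq2 called Atm there (0.98, adjusted p = 0.0292) and 4.18% of all genes. In Pelo cKO 4 members were called (1 higher, 3 lower), against 24.3% of all genes higher and 20.4% lower, and in the libraries labelled Upf2 cKO 5 (1 higher, 4 lower), against 8.47% higher and 11.8% lower. Median log2 fold changes over the members were -0.21, 0.08 and -0.42, and over all genes -0.02, 0.04 and -0.03. Footprints and RNA of Pelo cKO differed on the fibroblast markers Fn1 and Pdgfra, as given above. Whether the cultures behind the footprint and RNA libraries were alike was not tested.

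The log2 change in TE of Mdm2 was -0.66 (SE 0.18, adjusted p = 0.00782) in Pelo cKO and -0.59 (SE 0.19, adjusted p = 0.0398) in the libraries labelled Upf2 cKO, the second in 7 of 17 other settings. With 1 library left out, the second value ran from -0.72 to -0.38. For Cdkn1a the change in TE was -0.42 (SE 0.14, adjusted p = 0.0249) and -0.50 (SE 0.16, adjusted p = 0.0388), held in 12 of 16 and 9 of 17 settings. Atm stood at 1.79 (SE 0.29, adjusted p = 0.000267) in Pelo cKO, held in 16 of 16, and at 0.81 (SE 0.26, adjusted p = 0.0364) in the libraries labelled Upf2 cKO, held in 9 of 17. With coding transcripts alone in the RNA, the change of Mdm2 in the libraries labelled Upf2 cKO was -0.27 (adjusted p = 0.356). Ccng1 was not called for TE, at 0.14 (SE 0.14, adjusted p = 0.470) in Pelo cKO, beside decreases of 1.29 in footprints and 1.40 in RNA on the log2 scale. In the libraries labelled Upf2 cKO it stood at -0.53 (SE 0.18, adjusted p = 0.0533), and 5 of 17 other settings called it.

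Zmat3 was lower in TE in Pelo cKO (-0.50, SE 0.12, adjusted p = 0.00519, held in 16 of 16). Eda2r (-0.44, SE 0.13, adjusted p = 0.0247, held in 13 of 17) and Sesn2 (-0.43, SE 0.14, adjusted p = 0.0399, held in 6 of 17) were lower in the libraries labelled Upf2 cKO. The RNA of Pelo cKO differed from the controls by length of transcript. Genes with a mean length over 5000 bases had a median log2 fold change of 0.25 in RNA and -0.24 in TE, and genes under 1500 bases -0.25 and 0.31. Zmat3 (7044 bases) and Atm (7312 bases) belong to the long ones and Bax (904 bases) and Phlda3 (1415 bases) to the short ones. Atm went against the direction of its length class in both RNA and TE, while Zmat3 (RNA 0.28, SE 0.10, adjusted p = 0.0635) and Bax went with theirs. Phlda3 was at -0.04 (SE 0.16) in RNA and 0.34 (SE 0.24) in TE, neither of them called. With 1 library left out its TE ran from 0.19 to 0.50, and edgeR with a replicate block called it (0.48, adjusted p = 0.0314). In Hbs1l cKO and the libraries labelled Upf2 cKO the medians of TE ran the other way, at 0.22 and 0.12 for long and -0.11 and -0.10 for short genes, so that the TE values of Atm there (0.95, adjusted p = 0.134, and 0.81) had the sign of its class. The part of length in their values was not tested.

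**Figure D3:**
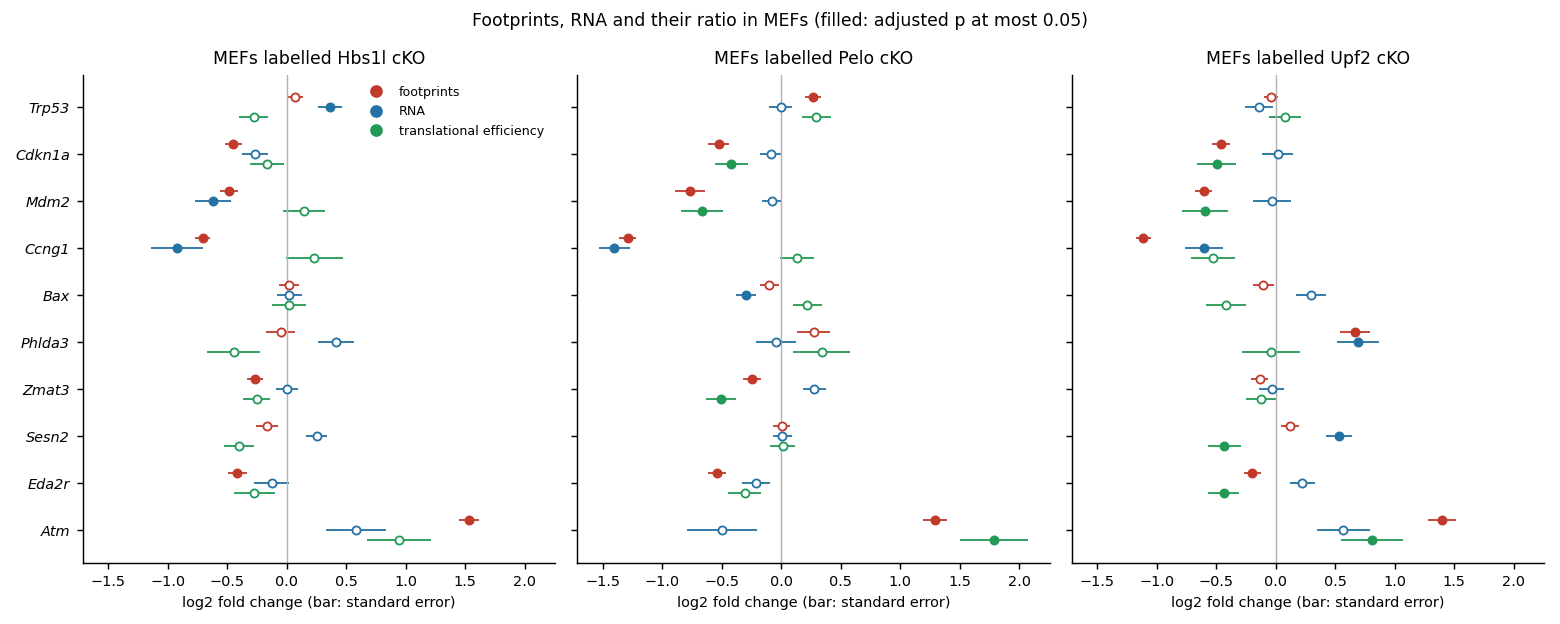
Log2 fold change of footprints (red), RNA (blue) and translational efficiency (green) of each member in the 3 MEF mutants, with bars for the standard error and filled points for an adjusted p of at most 0.05. Ccng1 is lower in footprints and RNA in all 3 panels, whereas for Cdkn1a and Atm only footprints, or footprints and efficiency, are filled.

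Transcripts of the members were read one by one because UPF2 acts on messages with early stop codons. Of the 45 member transcripts 28 had a mean of at least 1 TPM in some group, and 32, 31 and 35 passed the filter in the 3 comparisons. One was called, Ccng1-201 in Pelo cKO (-1.42, adjusted p = 0.0327), against 2.37% of all transcripts there. It carried nearly all RNA of its gene. This call held in 3 of 9 other settings and was lost whichever of the 5 libraries was left out. None was called in Hbs1l cKO or in the libraries labelled Upf2 cKO, where edgeR called 1.31% and 5.35% of all transcripts and DESeq2 called 5 and 6 member transcripts against 14.1% and 13.9% of all.

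Mdm2-209, a transcript annotated as a target of nonsense-mediated decay, had 30.9, 19.0 and 15.7 TPM in the libraries labelled Upf2 cKO against 9.69, 9.23 and 16.3 in controls, so that the groups overlapped in TPM, whereas they did not in the scaled counts that were tested (0.84, adjusted p = 0.169, and 0.0482 in DESeq2). As a share of Mdm2 TPM it ran from 25.3% to 28.9% in these libraries and from 11.2% to 20.5% in controls, which do not overlap. The main coding transcript, Mdm2-201, ran from 39.5% to 44.97% against 50.7% to 65.4%. Mdm2-206, annotated as a processed transcript and not as a target of decay, also lay above every control, at 20.2% to 20.3% against 13.4% to 18.2%. The shares are ratios of kallisto estimates and were not tested. In Hbs1l cKO and Pelo cKO the share of Mdm2-209 lay within or near the control range, at 17.9% to 19.96% and 12.9% to 19.8%.

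Bax-203 and Trp53-203, both annotated as coding, had shares outside the control range in the libraries labelled Upf2 cKO. Bax-203 took 23.3% to 26.1% of Bax TPM there and 17.3% to 20.9% in controls (transcript test adjusted p = 0.0999 in edgeR and 0.0144 in DESeq2). Trp53-203 took 21.3% to 31.3% of Trp53 TPM against 32.3% to 37.8% (adjusted p = 0.0548 and 0.000473). It was also below every control in Hbs1l cKO, at 23.0% to 30.1%, and above every control in Pelo cKO, at 42.1% to 44.3%. In Hbs1l cKO the transcript test of Trp53-203 itself gave 0.03 (adjusted p = 0.936 in edgeR). Beside it Trp53-201 was at 0.61 (adjusted p = 0.0891 in edgeR and 0.00105 in DESeq2). Trp53-202 was at 0.34 (adjusted p = 0.173 and 0.0495). Bax-203 went the other way in Pelo cKO, at 16.3% to 16.6%, below every control. The transcript test there gave -0.50 (adjusted p = 0.0915) in edgeR and -0.48 (adjusted p = 0.00336) in DESeq2. In Hbs1l cKO Bax-203 took 14.9% to 17.5%, which overlapped the controls. The whole-gene RNA of Bax (log2 fold change 0.30, adjusted p = 0.126) and Trp53 (-0.14, adjusted p = 0.428) did not pass in the libraries labelled Upf2 cKO.

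**Figure D4:**
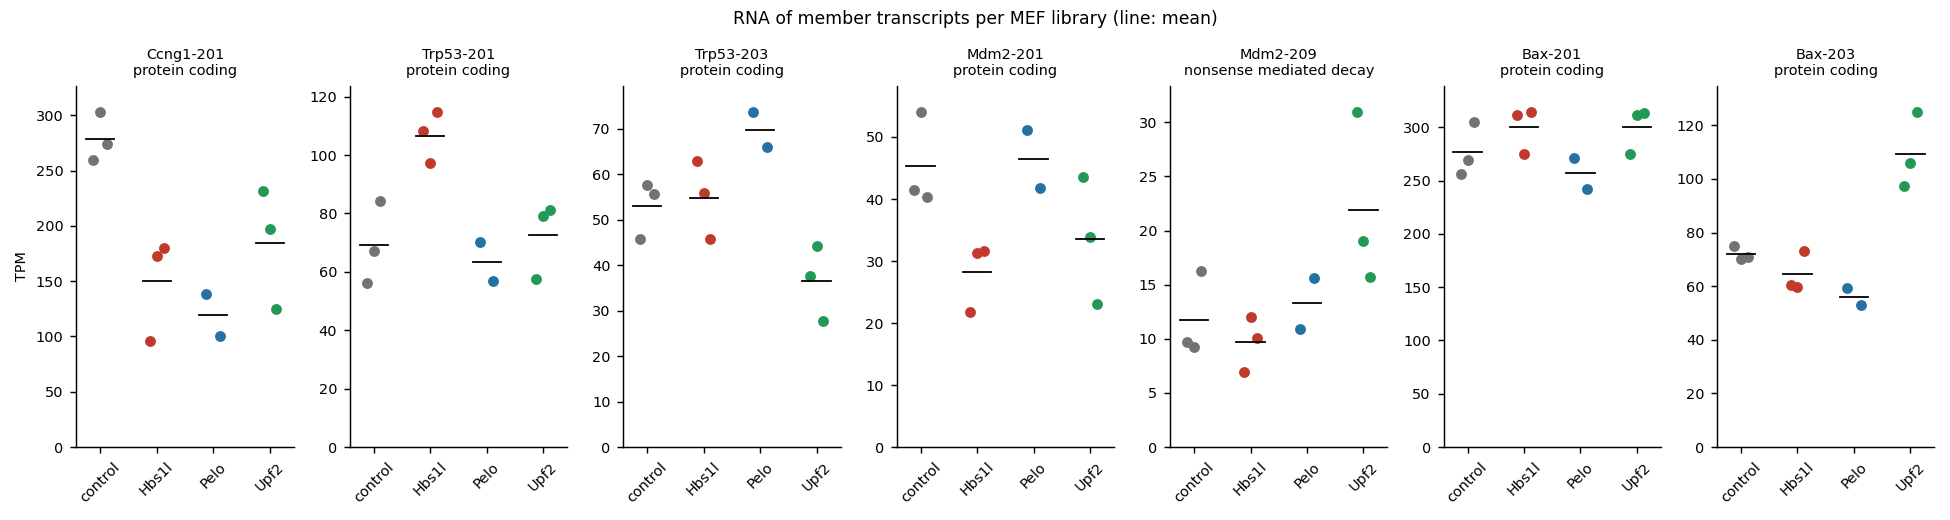
RNA (TPM, axis from 0) of 7 member transcripts in each MEF library, with a line at the group mean and the annotated type under each name. Ccng1-201 is below every control in all mutants, Mdm2-209 reaches 30.9 TPM in a library labelled Upf2 cKO, and Bax-203 lies between 97.6 and 125 TPM there against 70.1 to 75.0 TPM in controls.

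In Hbs1l -/- embryos no member was called by edgeR, against 1.87% of all genes, 1 had an unadjusted p under 0.05, and DESeq2 called none. Groups did not overlap for 2 members, compared with 23.8% of all genes. Ccng1 had 19.0, 20.4 and 25.8 CPM against 14.6, 14.4 and 9.92 in controls (0.72, SE 0.26, adjusted p = 0.169), from 28 to 134 counts a library. Mdm2 had 46.8, 44.5 and 43.5 CPM against 40.3, 41.6 and 42.5 (0.12, SE 0.17, adjusted p = 0.742). For both, the mutants were above all controls, but scaled by library size alone the groups of Mdm2 overlapped (40.7 to 45.2 against 38.7 to 40.9 CPM).

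The remaining members overlapped between embryo groups. Trp53 had 316, 236 and 196 CPM against 335, 299 and 304 (-0.32, SE 0.17, adjusted p = 0.318). Cdkn1a had 23.2, 10.8 and 11.6 CPM against 11.9, 20.5 and 18.1 (-0.12, SE 0.33, adjusted p = 0.875). Atm had 86.0, 157 and 121 CPM against 77.8, 116 and 84.3 (0.38, SE 0.22, adjusted p = 0.364). With 1 library left out, Trp53 ran from -0.53 to -0.18 and Atm from 0.15 to 0.58. Mutant replicate 1 was the highest or the lowest of the 3 mutants for all 10 members, and without it 3 members were called, Atm (0.58, adjusted p = 0.0331), Ccng1 (0.81, adjusted p = 0.0464) and Trp53 (-0.53, adjusted p = 0.0133), in a fit that called 20.3% of all genes. Markers of other cell types also differed between the embryo groups: erythroid markers (5 of 5 detected) summed to 211 to 352 CPM in mutants and 1823 to 2702 in controls, cardiomyocyte markers (5 of 5) to 564 to 864 against 1415 to 1694, and trophoblast markers to 50.8 to 202 (5 of 5) against 3.41 to 5.31 (Psg17 at 0). Neural progenitor markers (5 of 5) summed to 95.1 to 185 against 227 to 260, and endothelial markers (5 of 5) to 472 to 667 against 406 to 434. Their part in the member values was not tested.

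In Hbs1l cKO cerebella no member was called by edgeR either, against 0.0624% of all genes, and 2 had an unadjusted p under 0.05. DESeq2 called 1, Eda2r. Groups did not overlap for these 2 members, compared with 18.3% of all genes. Eda2r had 3.24, 2.19 and 2.39 CPM against 0.416, 0.613 and 1.04 (1.86, SE 0.37, adjusted p = 0.107), from 24 to 70 footprints a mutant library and 5 to 23 a control. Trp53 had 57.0, 47.7 and 44.1 CPM against 39.2, 36.6 and 32.1 (0.47, SE 0.14, adjusted p = 0.201). Both genes stood higher in the 3 mutants than in any control. Eda2r was called in DESeq2 (1.87, adjusted p = 0.006), which called 3.42% of all genes, and in edgeR without control replicate 3 (2.29, adjusted p = 0.0278), where 3.84% were called.

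For Cdkn1a the cerebellar values were 53.9, 73.3 and 61.3 CPM against 69.2, 76.9 and 84.4 (-0.29, SE 0.14, adjusted p = 0.419), and for Ccng1 29.9, 27.4 and 35.5 against 25.9, 26.1 and 33.2 (0.12, SE 0.15, adjusted p = 0.763). The other 6 members had log2 fold changes from -0.16 (Mdm2) to 0.13 (Atm). Purkinje cell markers summed to 5586 to 7236 CPM in mutants and 7582 to 12835 in controls, and neural progenitor markers to 235 to 253 against 170 to 190. Granule neuron markers summed to 2581 to 3082 CPM in mutants and 2505 to 4184 in controls (5 of 5 detected in all 3 lists). Among them Cbln3 and Gabra6, genes of mature granule neurons, had 211 to 380 and 355 to 518 CPM against 400.1 to 684 and 541 to 1141. Pax6, which the progenitor list holds too, went the other way, at 129 to 133 against 86.3 to 110.4, and Zic1 (957 to 1080 against 684 to 991) and Neurod1 (883 to 972 against 794 to 1257) overlapped. Macrophage markers (5 of 5 detected) summed to 132 to 144 CPM in mutants and 102 to 120 in controls. The part of all these markers was not tested.

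The effect of Hbs1l loss was compared between tissues directly. Between embryos and MEFs 3 members differed, where the test called 7.46% of all genes. The effect on Ccng1 was 1.41 higher in embryos (SE 0.21, adjusted p = 0.00102, held in 16 of 16 other settings), on Mdm2 0.62 higher (SE 0.15, adjusted p = 0.0214, held in 10 of 16), and on Atm it was -1.15, lower (SE 0.26, adjusted p = 0.0137, held in 15 of 16). Tissue, age, batch and the kind of allele all change between these comparisons and cannot be told apart. Between embryos and cerebella none was called (0.732% of all genes, 2 members with an unadjusted p under 0.05), and DESeq2 called none. Trp53 came nearest, with -0.79 (SE 0.24, adjusted p = 0.133). Without mutant embryo replicate 1 it was called, at -0.94 (adjusted p = 0.0206) against cerebella, where 7.47% of all genes were called, and at -0.58 (adjusted p = 0.00652) against MEFs, where 20.9% were. Between Upf2 and Pelo in MEFs, Trp53 differed by -0.31 (SE 0.08, adjusted p = 0.0265, held in 12 of 17).

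Levels of the members in unaffected cells set the scale for these effects. Controls are given in CPM of library size, those of the MEFs summed over the 3 sets by number, each gene against itself, with no test since tissue and batch change together. Cdkn1a had 16.2 ± 4.38 CPM (SD, n = 3) in embryos, 73.8 ± 8.74 in cerebella and 941 ± 44.5 in MEFs, and Ccng1 12.5 ± 2.59, a mean of 27.3 (range 24.4 to 32.4, n = 3) and 435 ± 8.05. Mdm2 had 40.0 ± 1.13, 37.7 ± 6.26 and, in MEFs, 491 to 495 CPM (mean 493), the first 2 within their spread of each other. Eda2r had 3.78 ± 1.53, 0.667 ± 0.323 and 75.2 ± 2.50. These 4 targets therefore had their highest level in cultured fibroblasts by more than the spread.

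Trp53 ran in another order, with 302 ± 17.6 CPM in embryos, 217 ± 4.29 in MEFs and 34.4 ± 2.77 in cerebella. Atm was likewise highest in embryos, at 89.4 ± 20.1 CPM against 27.1 ± 1.56 in cerebella and 27.9 ± 3.26 in MEFs. Bax had 108 ± 12.9 CPM in embryos, 48.7 ± 6.51 in cerebella and 103 ± 6.20 in MEFs. Phlda3, Zmat3 and Sesn2 were again highest in MEFs, at 170 ± 34.3, 96.4 ± 2.69 and a mean of 67.5 (range 65.0 to 68.8). The other tissues held 10.6 to 24.4 CPM of Phlda3, 14.4 to 50.2 of Zmat3 and 15.8 to 30.0 of Sesn2.

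The wider pathway was read from lists of 65 other p53 targets, 17 regulators of p53, 25 cell cycle genes that are lowered through p21 and the DREAM complex, and 15 genes of the integrated stress response. Their counts are to be read against the shares of all genes called, which in footprints were 17.4% higher and 16.7% lower in Hbs1l cKO, 22.9% and 21.2% in Pelo cKO, and 22.3% and 21.1% in the libraries labelled Upf2 cKO. In RNA these shares were 12.7% and 10.4%, 15.5% and 16.6%, and 13.2% and 6.76%. Of the other targets tested in MEF footprints, 6 rose and 26 fell of 63 in Hbs1l cKO, 12 rose and 28 fell of 63 in Pelo cKO, and 10 rose and 23 fell of 63 in the libraries labelled Upf2 cKO. Their median log2 fold changes were -0.21, -0.20 and -0.18, close to those of the members, with 0.00 or -0.01 for all genes. In RNA the same list had 10 up and 8 down of 65, 15 up and 14 down of 64, and 16 up and 4 down of 64, with medians of -0.01, -0.03 and 0.10. In footprints more of the list fell than rose in each mutant. In RNA the counts in Hbs1l cKO were near the shares of all genes. In the libraries labelled Upf2 cKO RNA went the other way, with 16 up and 4 down. For TE, of 63 tested, 0 rose and 0 fell in Hbs1l cKO, and 10 rose and 17 fell in Pelo cKO. In the libraries labelled Upf2 cKO 0 rose and 13 fell. Of all genes, TE was called for 0.0336% in Hbs1l cKO. The shares higher and lower were 24.3% and 20.4% in Pelo cKO, and 8.47% and 11.8% in the libraries labelled Upf2 cKO.

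Within these targets the death genes had 0 up and 10 down of 16 in Hbs1l cKO, 2 up and 8 down in Pelo cKO and 0 up and 7 down in the libraries labelled Upf2 cKO. In RNA the same 16 genes had 2 up and 4 down, 2 up and 5 down, and 5 up and 2 down. Perp, which encodes a membrane protein of desmosomes and apoptosis, fell by 1.80, 2.33 and 1.60 on the log2 scale (SE 0.16, 0.18 and 0.17, adjusted p = 4.45e-06, 7.39e-06 and 3.11e-05). Pmaip1, which encodes the BH3-only protein NOXA, fell by 1.43, 2.03 and 1.48 (SE 0.14, 0.21 and 0.16, adjusted p = 6.06e-06, 4.51e-05 and 3.92e-05). Dram1, an inducer of autophagy, went up in Pelo cKO (1.70, SE 0.18, adjusted p = 4.81e-05). The arrest genes had 3 up and 3 down, 2 up and 7 down, and 4 up and 6 down of 14 in footprints. Among them Sfn, which encodes 14-3-3 sigma, fell by 1.90, 1.88 and 2.16 (SE 0.22, 0.30 and 0.25, adjusted p = 2.70e-05, 0.000649 and 5.40e-05), and Gadd45a rose in the libraries labelled Upf2 cKO (1.03, SE 0.12, adjusted p = 5.10e-05). In RNA the arrest genes had 3 up and 1 down, 5 up and 3 down, and 4 up and 1 down of 15. The DNA repair genes were divided in footprints, with 2 up and 2 down, 3 up and 4 down, and 4 up and 3 down of 10. In RNA they had 3 up and 2 down, 1 up and 3 down, and 3 up and 0 down. Targets in metabolism, secretion and other roles had 1 up and 11 down, 5 up and 9 down, and 2 up and 7 down of 23 in footprints. Their RNA had 2 up and 1 down of 24, 7 up and 3 down of 23, and 4 up and 1 down of 23.

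Of 15 regulators tested in footprints, 5 rose and 2 fell in Hbs1l cKO, 2 rose and 3 fell in Pelo cKO, and 4 rose and 3 fell in the libraries labelled Upf2 cKO, most of these counts being near the shares of all genes. Cdkn2a, whose product ARF blocks MDM2, had 21.04 to 31.4 CPM in Hbs1l cKO against 75.0 to 88.8, 9.95 to 16.5 in Pelo cKO against 72.3 to 90.2, and 12.4 to 18.6 in the libraries labelled Upf2 cKO against 72.0 to 92.1. The log2 fold changes were -1.70, -2.64 and -2.31 (SE 0.13, 0.16 and 0.13, adjusted p = 1.46e-06, 1.70e-06 and 9.72e-07). Cdkn2a also encodes p16, and counts per gene do not divide the 2 products. The p53 kinase gene Hipk2 fell by 0.88, 1.04 and 1.42 (SE 0.10, 0.11 and 0.11, adjusted p = 2.27e-05, 5.62e-05 and 4.43e-06), and Chek1, a kinase of the replication checkpoint, rose by 0.86, 0.64 and 0.92 (SE 0.14, 0.17 and 0.16, adjusted p = 0.000317, 0.0123 and 0.000817). Mdm4, the partner of MDM2, rose in the libraries labelled Upf2 cKO in footprints (1.19, SE 0.17, adjusted p = 0.000232) and RNA (1.40, SE 0.18, adjusted p = 0.000449).

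Of the cell cycle genes downstream of p21, 24 of 25 were higher and 1 lower in MEF footprints of each mutant (medians 0.70, 0.67 and 0.61). The exception was E2f1, a transcription factor of the G1/S transition, at -0.51, -0.52 and -0.74 (SE 0.13, 0.15 and 0.16, adjusted p = 0.00926, 0.0150 and 0.00259). Mki67, the gene of the proliferation marker Ki-67, had 326 to 388 CPM in Hbs1l cKO against 146 to 199 in controls. RNA followed in Hbs1l cKO, where 18 of 25 rose and 0 fell, and not in Pelo cKO, with 0 up and 5 down (median -0.06), or in the libraries labelled Upf2 cKO, with 0 called (median -0.08). TE was higher for 22 in Pelo cKO, against 24.3% of all genes, and for 19 in the libraries labelled Upf2 cKO, against 8.47%, and 1 was lower in each, against 20.4% and 11.8%. In Hbs1l cKO 0 of the 25 were called for TE in edgeR (median -0.02), against 0.0336% of all genes. In cerebella all 25 had a positive log2 fold change (median 1.20) and 24 had an unadjusted p under 0.05, but none was called in edgeR. The share of all genes under that unadjusted p is not given here, so that the 24 have no background beside them. The progenitor and granule neuron markers of the mutant cerebella given above moved beside these genes, and the part of the markers was not tested. In embryos none was called and the median was 0.00.

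Sesn2 is shared with the integrated stress response, whose genes were read for that reason. Of 15 genes, 5 rose and 3 fell in footprints in Hbs1l cKO, 9 rose and 2 fell in Pelo cKO, and 10 rose and 0 fell in the libraries labelled Upf2 cKO. In RNA 14 were tested, with 7 up and 1 down, 1 up and 4 down, and 7 up and 0 down. In embryos and cerebella the lists held few calls. Dram1 was the single called target of 56 in embryos, at 11.2 to 23.6 CPM against 4.06 to 4.96 (1.94, SE 0.36, adjusted p = 0.02), and of 61 in cerebella none was called.

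**Figure D5:**
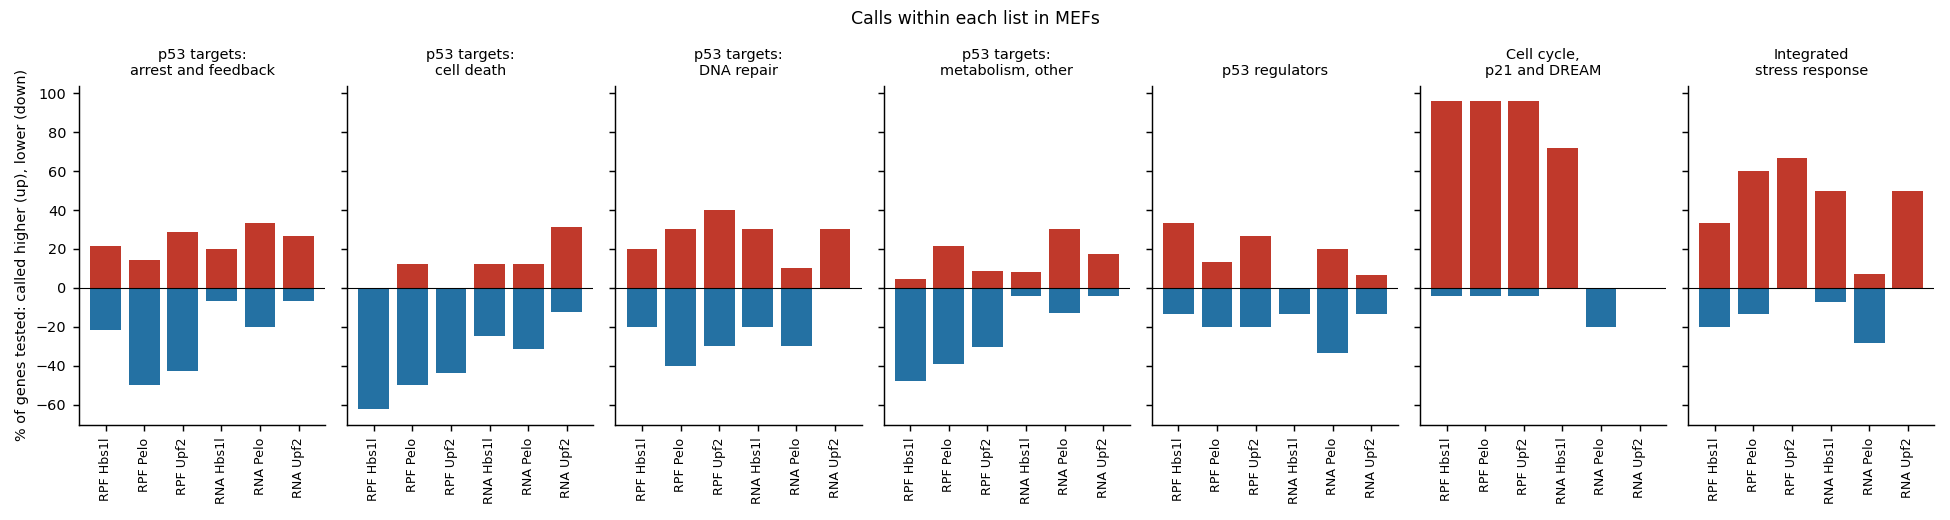
Share of tested genes called higher (red, above 0) and lower (blue, below 0) in each list, in footprints (RPF) and RNA of the 3 MEF mutants, in percent. Of the 25 cell cycle genes 24 are called higher in footprints in each mutant, and in RNA 18 in Hbs1l cKO and 0 in the others. Of the 16 death targets 10, 8 and 7 are called lower in footprints.

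The genes whose footprints ran most like Cdkn1a over the 18 MEF libraries were Msx2 (Pearson r = 0.979), Adam19 (0.977), Col7a1 (0.977), Loxl2 (0.976) and Cds2 (0.974), out of 11890 genes. Mdm2 ranked 171 (0.933) and Ccng1 421 (0.894), and Atm was among the most opposed (-0.946). These libraries share controls and genotypes and are not independent, so that the values describe the pattern and carry no test.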

How the data were processed

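Members and gene lists were chosen with earlier results of these data known. The authors deposited ribosome footprint counts per gene (raw counts, reads aligned to mm10 and counted over Gencode M24 with HISAT2 2.1.0 and featureCounts after removal of other RNA with Bowtie2 2.2.3, as the submitters' processing notes and the study's methods name them). For the RNA they deposited estimated counts and TPM per transcript from kallisto 0.42.4. Estimated counts were added up over the transcripts of a gene, then rounded. Footprint and TE tests omit histone genes. A comparison used only its own mutant and control libraries, in edgeR 4.0.16 (R 4.3.3), the quasi-likelihood test with TMM factors, filterByExpr and Benjamini-Hochberg adjustment over all genes tested, with a threshold of 0.05. CPM and TPM scale each library to a common total. TE was the assay by genotype interaction, and differences of effects were the set by genotype interaction. CPM are scaled by TMM within a comparison, except where library size is named. SE was taken as the log2 fold change over the root of F. The fits were tested on simulated counts, and the outcome is not given here. Alternatives were DESeq2 1.42.0, RLE factors, no filter beyond 1 count, leaving out each library, a replicate block, coding transcripts only, controls summed over the 3 sets and a direct comparison of mutants.

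Named were the 10 members, the targeted genes, up to 3 increases and 3 decreases per list and comparison (called, groups not overlapping, mean of at least 5 CPM), member transcripts of at least 1 TPM in a group, and the 5 genes most like Cdkn1a by log2(CPM + 0.5). Markers were taken from textbook lists of each cell type. Replicate numbers were not taken to pair the libraries: the correlation of same-numbered deviations was not over 0.1 for every pair in any comparison. This rule does not exclude a weak pairing. In embryos (r from 0.08 to 0.10) and Hbs1l MEF footprints (0.04 to 0.10), all 3 mutant libraries went best with their own number. Coordinates are GRCm38.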

Additional observations from a re-analysis of the deposited data

Results flagged for a closer look

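Member effects that differed between groups by the test of the difference itself are listed here. Ccng1 footprints fell further in Pelo cKO than in Hbs1l cKO MEFs, by -0.58 on the log2 scale, and a direct comparison of the mutant libraries gave an adjusted p of 0.000559 in edgeR. Trp53 footprints differed between the effects of Upf2 and Pelo by -0.31, and Eda2r footprints by 0.34. These tests between MEFs count shared controls as separate libraries. In the direct comparison of the mutant libraries Phlda3 also differed, by 0.34 between Pelo and Hbs1l and by 0.40 between Upf2 and Pelo. Direct comparisons change batch together with genotype, and that of Pelo with Hbs1l also changes the make-up of the alleles. Between embryos and MEFs the effect of Hbs1l loss differed for Mdm2 by 0.62, for Ccng1 by 1.41 and for Atm by -1.15, with the tissue, the batch and the allele changing together. For Ccng1 and Mdm2 the 3 mutant embryo libraries lay above their controls while the 3 mutant MEF libraries lay below theirs, although by library size alone the embryo groups of Mdm2 overlapped.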

How the results depend on the processing

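Of 43 calls of members and their transcripts, 24 held under every alternative. DESeq2 called 1 member in cerebella and 1 for TE in Hbs1l cKO, and 5, 3 and 6 member transcripts in Hbs1l cKO, Pelo cKO and the libraries labelled Upf2 cKO. Without the filter, 5 members were called in RNA of Hbs1l cKO, 1 in RNA of Pelo cKO and 1 for the difference of Upf2 and Pelo. Coding transcripts alone gave 4 members in RNA of Pelo cKO, and the direct comparison of Pelo with Hbs1l gave 2 (Ccng1 and Phlda3). That of Upf2 with Pelo gave 3. No share of all genes is given here for the fits without the filter or with coding transcripts alone. None is given for the transcripts of Pelo cKO in DESeq2 either, so that these counts have no background beside them. A replicate block was fitted although the numbers were not taken to pair the libraries. It left 1 member in RNA of Pelo cKO, 2 for TE in the libraries labelled Upf2 cKO and 0 member transcripts in Pelo cKO. It also added Phlda3 in footprints (8 members) and TE (5 members) of Pelo cKO. With no mismatch allowed, 1 member promoter kept the p53 motif. Leaving out 1 library gave 0 to 3 members in embryos (3 without mutant replicate 1), 0 to 1 in cerebella, 0 to 3 in RNA of Hbs1l cKO, 1 to 3 in RNA of Pelo cKO and of the libraries labelled Upf2 cKO, 0 to 5 for TE in the latter, 0 to 2 for the difference of Upf2 and Pelo, 0 to 1 for embryos and cerebella, 1 to 4 for embryos and MEFs, and 0 member transcripts in Pelo cKO in all 5 fits. The causes were not tested. In footprints of the MEF mutants the range over all settings was 5 to 8. Of 172 results called in no setting, 76 changed sign in some setting. Eda2r rested on 5 to 70 footprints a library in cerebella and Atm on 63 to 929 RNA reads.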
